A study of Mus musculus with 3 samples.

Results

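The 6 genes described here, *Nr4a1*, *Nr4a2*, *Nr4a3*, *Egr1*, *Egr2* and *Egr3*, encode transcription factors that T cells switch on after their antigen receptor is engaged. They were taken by symbol from the 33696 genes measured, and all 6 were found, with 1 identifier each (ENSMUSG00000023034, ENSMUSG00000026826, ENSMUSG00000028341, ENSMUSG00000038418, ENSMUSG00000037868 and ENSMUSG00000033730 in the order given). They were followed in Thy1.1+CD8+ pmel T cells sorted from B16F10 melanomas by single-cell RNA sequencing (scRNA-seq). In all groups the transferred cells carried the transgenic pmel T cell receptor, which recognizes a gp100 peptide of melanoma cells, had been preconditioned in culture with that peptide and a cytokine, and had been given to irradiated, tumor-bearing C57BL/6 mice that were then dosed with cytokine. The groups were sIL-2, an engineered IL-2 with high affinity for IL-2Rβ; IL-2/21-Trikine, the same sIL-2 fused to a non-signaling IL-21 that binds IL-21Rα; and sIL-2 + IL-21, where by the study's methods cells were preconditioned with both cytokines and mice then received sIL-2 alone. Tumors were taken on day 18 after tumor injection, and each group is 1 library. No untreated library is among the 3, and the number of mice behind a library was not found in the methods.

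NR4A proteins are orphan nuclear receptors. They have no known classical ligand and act through the amount of protein made, and in T cells they are immediate early genes whose transcription follows calcium and calcineurin signaling and is sustained in chronically stimulated, exhausted cells. EGR proteins are zinc finger factors. *Egr1* is driven mainly through ERK and serum response factor, whereas *Egr2* and *Egr3* depend strongly on NFAT and are known for limiting T cell receptor signaling, in part through *Cblb* and diacylglycerol kinases. Cytokines of the IL-2 family signal mainly through STAT proteins. In T cells the NR4A and EGR genes are widely read as a trace of recent antigen contact, although other stimuli and tissue dissociation also induce them.

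The promoters of the genes are shown first, since cAMP response elements near the start site are a known feature of the NR4A family. Sequences were cut from windows around RefSeq start sites, build GRCm38.p6, and are printed 5′ to 3′ on the strand of the gene. Each stretch holds up to 250 bases and ends just before the start of a chosen GENCODE transcript, which was Nr4a1-201, Nr4a2-203, Nr4a3-201 or Egr2-201. That start need not be the RefSeq start, and for *Nr4a3* it lies upstream of it, which makes the stretch shorter. Capitals mark each TGACG or its reverse complement CGTCA, the core of a cAMP response element, and in *Egr2* also a CArG box, the element bound by serum response factor. RefSeq windows matched 4 of the 6 genes, and *Egr1* and *Egr3* had no entry in the table. The stretches are chr15:101266596-101266845 (plus strand) for *Nr4a1*, chr2:57124004-57124253 (minus strand) for *Nr4a2*, chr4:48045055-48045152 (plus strand, 98 bases) for *Nr4a3* and chr10:67537619-67537868 (plus strand) for *Egr2*.
Nr4a1: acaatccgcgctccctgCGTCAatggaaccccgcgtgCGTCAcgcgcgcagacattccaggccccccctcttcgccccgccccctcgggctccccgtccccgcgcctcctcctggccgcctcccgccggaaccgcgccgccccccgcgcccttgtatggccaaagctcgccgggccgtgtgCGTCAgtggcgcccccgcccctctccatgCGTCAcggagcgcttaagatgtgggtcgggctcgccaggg
Nr4a2: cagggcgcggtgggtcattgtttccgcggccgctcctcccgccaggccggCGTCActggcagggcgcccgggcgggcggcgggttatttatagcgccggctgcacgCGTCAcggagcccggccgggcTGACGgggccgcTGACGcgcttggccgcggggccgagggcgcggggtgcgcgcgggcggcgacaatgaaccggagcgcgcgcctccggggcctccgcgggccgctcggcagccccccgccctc
Nr4a3: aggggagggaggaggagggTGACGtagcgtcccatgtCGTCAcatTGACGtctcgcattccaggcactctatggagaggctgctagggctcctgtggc
Egr2: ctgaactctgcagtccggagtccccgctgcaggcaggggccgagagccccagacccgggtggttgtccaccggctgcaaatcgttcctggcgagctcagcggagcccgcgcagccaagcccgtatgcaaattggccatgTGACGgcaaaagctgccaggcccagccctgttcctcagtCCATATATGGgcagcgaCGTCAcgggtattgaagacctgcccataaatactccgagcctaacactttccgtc
The *Nr4a1* and *Nr4a2* stretches hold 4 copies of the core each and the shorter *Nr4a3* stretch holds 3. In the full window of 300 bases (250 before a start and 50 after), each of the 3 NR4A genes has 4 copies over both strands. Among 32851 mouse promoter windows of this length, 20.8% hold at least 1 copy, 5.01% at least 2 and 0.231% at least 4. The full palindrome TGACGTCA, in 1.79% of windows, is in no window of the 4 genes. *Egr2* holds 2 copies of the core, and its CArG box is an element found in 1.63% of windows. The site that NR4A monomers bind, AAAGGTCA (1.51% of windows), is absent from these windows, and the EGR site GCGGGGGCG (2.91%) occurs once, in *Nr4a1*. The other EGR site searched, GCGTGGGCG (0.612%), is in none, and the NFAT core GGAAA, which 61.3% of windows hold, is in the *Nr4a2* window and in that of *Egr2*. *Egr2* has 5 windows in the table, from different start sites, and the one printed is the third by position of start. The *Egr2* windows that begin at 67535249 and 67537316 hold 0 copies of the core, and the first of them has no CArG box. These are letter matches only, no binding was measured in the cells, and the count files hold no coordinates.

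After quality control 7760 cells in the sIL-2 library, 13299 in the IL-2/21-Trikine library and 9798 in the sIL-2 + IL-21 library were kept, with medians of 12882.5, 10254 and 14055.5 UMIs per cell. A UMI counts 1 captured RNA molecule. *Cd3e* was detected in 90.1% to 96.9% of cells and *Cd8a* in 80.4% to 89.9%, and the summed levels of B cell, CD4 and regulatory T cell and melanoma markers were each under 10 CPM (UMIs of a gene scaled to a library total of 1000000). Between 98 and 122 cells per library held at least 3 of 10 myeloid markers. Erythroid markers summed to 68.7 CPM in the sIL-2 library and to under 0.5 CPM in the others, so the sIL-2 library stood apart in this respect. Pairs of libraries shared 18 to 41 cell barcodes, at most 0.418% of a library. Levels are UMIs of a gene summed over a library in CPM, which cannot tell fewer expressing cells from less RNA per cell. For shares at equal depth, each cell was also thinned to 2000 UMIs, which kept 7494, 11524 and 9434 cells and left out 3.43%, 13.3% and 3.72% as too shallow. Detection at this depth still rises with RNA per cell, so these shares cannot separate them either. With 1 library per group there is no replicate and no test between groups, and all intervals are exact at 95% and cover counting error only.

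Among the NR4A genes the sIL-2 library was the highest throughout. *Nr4a1*, which encodes NUR77, the receptor used in reporter mice for antigen receptor signaling, was at 346 CPM (343 to 349) in the sIL-2 library, at 177 CPM (175 to 179) in the IL-2/21-Trikine library and at 155 CPM (153 to 157) in the sIL-2 + IL-21 library. *Nr4a2*, which encodes NURR1, was at 570.2 CPM (566 to 574) in the sIL-2 library, at 407 CPM (404 to 411) in the IL-2/21-Trikine library and at 398 CPM (395 to 401) in the sIL-2 + IL-21 library. *Nr4a3*, which encodes NOR1, was at 287 CPM (284 to 289.5), 186 CPM (184 to 188) and 182 CPM (179.5 to 184) in the same order. For each gene the intervals of the sIL-2 library lay clear of both others, and the other libraries were close to each other. Summed over the 3 genes the level was 1203 CPM in the sIL-2 library, 770.3 CPM in the IL-2/21-Trikine library and 734 CPM in the sIL-2 + IL-21 library.

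The EGR genes did not share a common order. *Egr1* was at 66.7 CPM (65.3 to 68.1) in the sIL-2 library, at 45.3 CPM (44.3 to 46.3) in the IL-2/21-Trikine library and at 74.0 CPM (72.7 to 75.3) in the sIL-2 + IL-21 library, so that the sIL-2 + IL-21 library was the highest. *Egr2* was at 17.7 CPM (17.0 to 18.4) in the sIL-2 library, 14.05 CPM (13.5 to 14.6) in the IL-2/21-Trikine library and 10.00 CPM (9.52 to 10.5) in the sIL-2 + IL-21 library. *Egr3* was at 46.3 CPM (45.1 to 47.5), 29.7 CPM (28.9 to 30.5) and 25.5 CPM (24.7 to 26.3). *Egr2* and *Egr3* thus followed the order of the NR4A genes, and *Egr1* did not. *Egr1* supplied 51.0% of EGR UMIs in the sIL-2 library, 50.9% in the IL-2/21-Trikine library and 67.6% in the sIL-2 + IL-21 library.

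**Figure D1:**
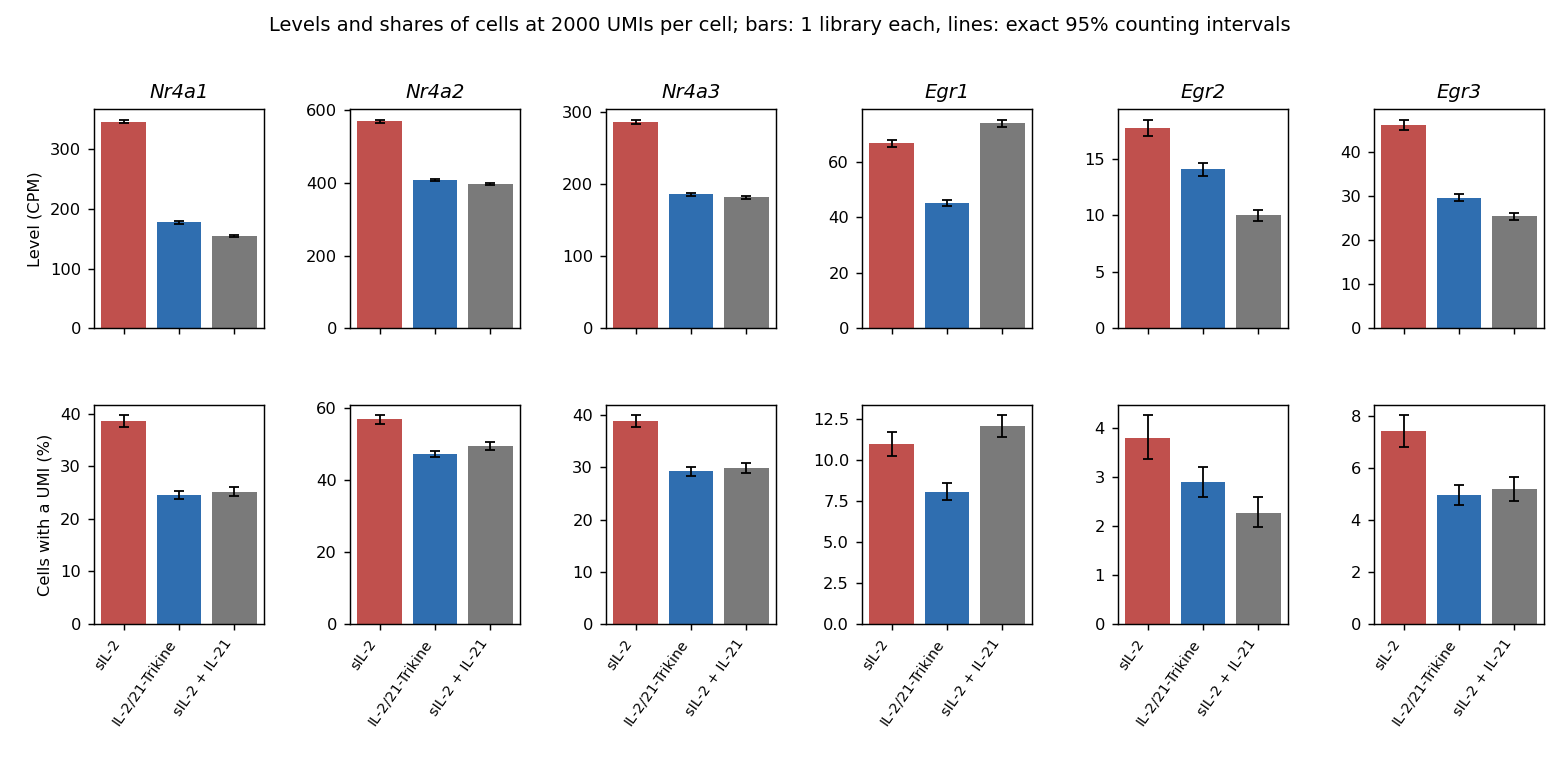
Levels in CPM (upper row) and percent of cells with at least 1 UMI after thinning to 2000 UMIs per cell (lower row) of the 6 genes. Each bar is 1 library and lines are exact 95% counting intervals; sIL-2 is the highest bar for 5 genes in both rows, and for *Egr1* the sIL-2 + IL-21 bar is the highest (74.0 CPM, 12.1% of cells).

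Shares of cells at equal depth kept the highest library of every gene. *Nr4a1* was detected in 38.6% of thinned cells (37.5% to 39.7%) in the sIL-2 library, in 24.6% (23.8% to 25.4%) in the IL-2/21-Trikine library and in 25.2% (24.3% to 26.0%) in the sIL-2 + IL-21 library. Before thinning these shares were 72.4%, 51.8% and 62.3%, a gap between the last 2 libraries that is not seen at equal depth. *Nr4a2* was detected in 56.7%, 47.1% and 49.4% of thinned cells and *Nr4a3* in 38.9%, 29.3% and 29.9% (before thinning 86.7%, 75.2% and 87.0%, and 78.9%, 62.1% and 74.2%). For *Egr1* the shares were 10.97% (10.3% to 11.7%), 8.08% (7.59% to 8.59%) and 12.1% (11.4% to 12.7%), so the sIL-2 and sIL-2 + IL-21 intervals overlapped. *Egr2* was seen in 3.79%, 2.88% and 2.26% of cells and *Egr3* in 7.41%, 4.95% and 5.18%. The unthinned shares of *Egr1*, *Egr2* and *Egr3* were 36.2%, 16.2% and 21.8% in the sIL-2 library, 23.0%, 11.7% and 13.3% in the IL-2/21-Trikine library, and 35.1%, 11.04% and 15.2% in the sIL-2 + IL-21 library. No cell type known to lack these genes was present in number, since myeloid cells use them too, so a background share from free RNA could not be set beside these values. In the 54, 68 and 70 thinned cells with at least 2 myeloid markers *Nr4a1* was at 231, 226 and 155 CPM. Without all cells that held at least 3 such markers the log2 ratio of *Nr4a1* between IL-2/21-Trikine and sIL-2 was -0.99, beside -0.97 with them.

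For *Nr4a1* the sIL-2 library had both more positive cells and more UMIs per positive cell. Both measures rise with the mean, which was 0.73, 0.39 and 0.39 UMIs per thinned cell in the library order used above. They cannot tell more expressing cells from more RNA per cell. A positive thinned cell held a mean of 1.90 *Nr4a1* UMIs in the sIL-2 library, 1.57 in the IL-2/21-Trikine library and 1.56 in the sIL-2 + IL-21 library. Cells with at least 3 UMIs made up 9.05%, 3.32% and 3.20% of the libraries and held 47.8%, 30.9% and 30.5% of all *Nr4a1* UMIs. The UMIs were spread unevenly over cells. At the mean of the sIL-2 library a Poisson count would place *Nr4a1* in 52.0% of cells, and the observed share was 38.6%. The variance of the 6 genes across thinned cells was 1.15 to 2.18 times the mean.

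IL-2/21-Trikine against sIL-2 sets side by side the same base cytokine with and without the part that binds IL-21Rα. Recruitment of the receptor was not measured in these cells. Of the 6 genes, 4 were lower by more than 0.5 on the log2 scale and none was higher, where 5.81% of 8824 genes with at least 5 CPM were lower by as much, 2.88% were higher and 8.69% passed the limit either way. The log2 ratio of CPM was -0.97 (-0.99 to -0.95) for *Nr4a1*, -0.64 (-0.70 to -0.59) for *Egr3*, -0.63 (-0.65 to -0.60) for *Nr4a3* and -0.56 (-0.60 to -0.51) for *Egr1*. *Nr4a2* at -0.48 (-0.50 to -0.47) and *Egr2* at -0.33 (-0.42 to -0.25) stayed inside the limit. All 6 ratios were below 0, with a median of -0.59. Most genes were also below 0 in this comparison, with only 3322 of the 8824 above it and a median of -0.08.

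IL-2/21-Trikine against sIL-2 + IL-21 gave small differences for 4 of the genes. The log2 ratio was 0.19 (0.17 to 0.22) for *Nr4a1*, 0.03 (0.02 to 0.05) for *Nr4a2*, 0.03 (0.01 to 0.06) for *Nr4a3* and 0.22 (0.16 to 0.28) for *Egr3*. Their sign was not stable across settings. Weighting every cell equally gave -0.03, -0.08, -0.04 and 0.05 in the same order, and cells of 5000 to 20000 UMIs gave -0.02, -0.18, -0.21 and -0.00. *Egr2* was at 0.49 (0.40 to 0.58), which rested on low levels and ranged from 0.13 to 0.50 over the settings tried. *Egr1* was the only gene past 0.5, at -0.71 (-0.75 to -0.67), and 3.58% of all genes tested were lower by as much, 3.51% were higher and 7.09% passed the limit either way.

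With sIL-2 against sIL-2 + IL-21, which differed in IL-21 during preconditioning, 5 of the 6 genes were higher by more than 0.5, beside 10.1% of all genes tested that were higher, 5.79% that were lower and 15.9% past the limit either way. The log2 ratio was 1.16 (1.14 to 1.18) for *Nr4a1*, 0.86 (0.80 to 0.92) for *Egr3*, 0.83 (0.73 to 0.92) for *Egr2*, 0.66 (0.64 to 0.68) for *Nr4a3* and 0.52 (0.50 to 0.53) for *Nr4a2*. *Egr1* was at -0.15 (-0.19 to -0.11). The median of the 6 genes was 0.74 and that of all genes 0.08. The limit of 0.5 was close for *Nr4a2* and *Nr4a3*, and with every cell weighted equally they were at 0.42 and 0.48, which left 3 genes past it. Any 2 of the 3 comparisons share a library, so the higher values of sIL-2 in the first and the last are not independent.

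**Figure D2:**
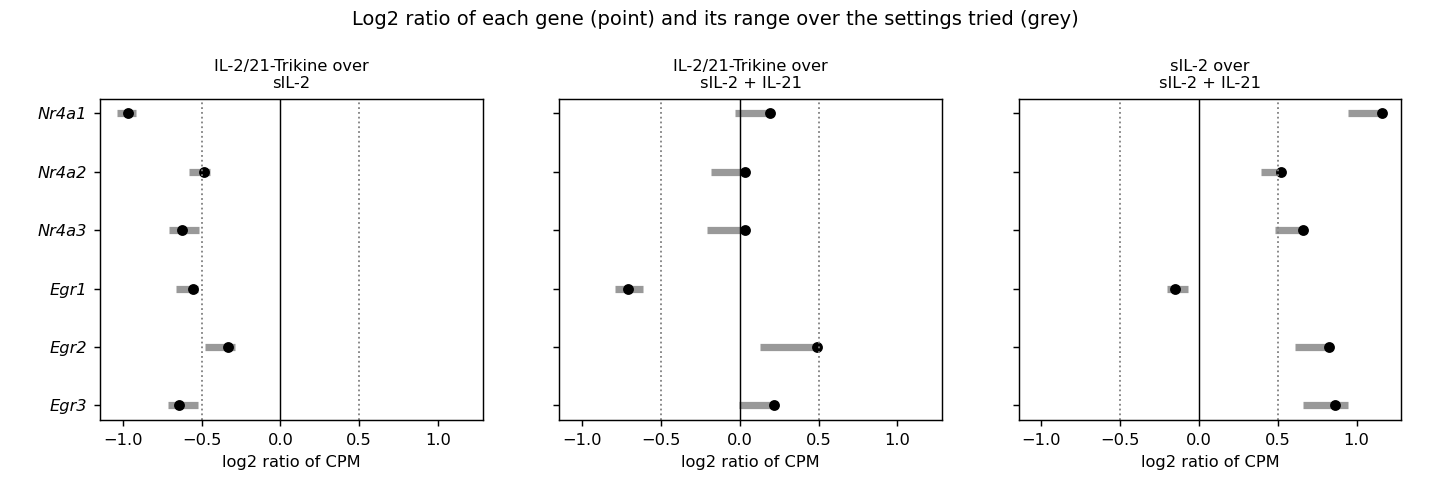
Log2 ratio of CPM of the 6 genes in the 3 pairs of libraries (points) with the lowest and highest value over the settings tried (grey bars); dotted lines mark the limit of 0.5. *Nr4a1* lies farthest from 0 in both panels that include sIL-2 (-0.97 and 1.16), and *Egr1* is the only gene past the limit in the middle panel (-0.71).

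The genes were found together in the same cells more often than their separate shares would give. For each of the 15 pairs the share of thinned cells with both genes was divided by the product of the 2 single shares, and all 15 ratios were above 1 in each library. The ratio was not computed for pairs of other genes. How often such pairs exceed 1 in these mixed cells is therefore unknown, and whether the 15 pairs stand out from them was not tested. Their median was 1.40 in the sIL-2 library, 1.65 in the IL-2/21-Trikine library and 1.57 in the sIL-2 + IL-21 library. Pairs of EGR genes, which were seen in the fewest cells, had the highest ratios. Their Pearson correlations on a log(1+x) scale were lower, at 0.08 to 0.16 over the libraries, against 0.20 to 0.28 for pairs of NR4A genes. *Egr2* and *Egr3* were together at 2.09, 3.96 and 3.804 times the product, from 44, 65 and 42 cells, and *Egr1* and *Egr2* at 2.57, 2.80 and 2.80 times, from 80, 75 and 72 cells. *Nr4a1* and *Egr1* were together at 1.52, 1.97 and 1.89 times, whereas *Nr4a2* and *Egr1* were at 1.21, 1.23 and 1.13 times, the lowest ratio in each library. A ratio cannot exceed the inverse of the larger single share, so pairs with the widely detected *Nr4a2* have the lowest ceiling. Pairs of rarely detected genes have a higher one. The single shares also differed between libraries, so the medians of the libraries are under different ceilings.

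**Figure D3:**
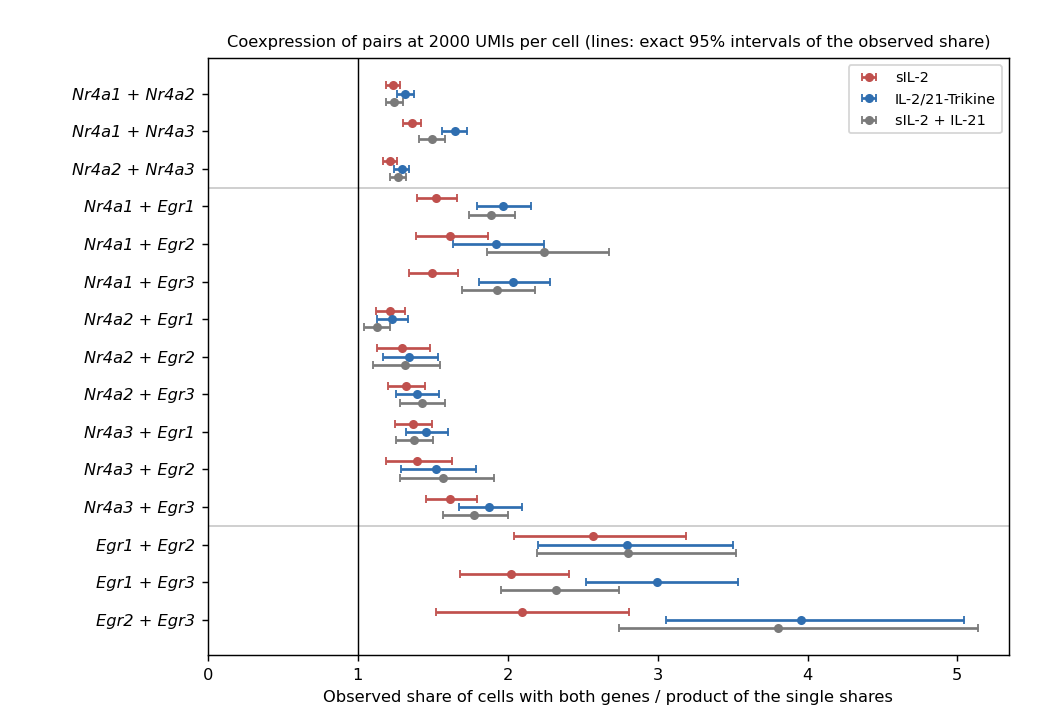
Share of thinned cells with both genes over the product of the single shares, for 15 pairs (rows) in 3 libraries (colors), with exact 95% intervals of the observed share. All points lie to the right of 1, and the 3 pairs of EGR genes at the bottom reach 2.02 to 3.96. The ceiling of a ratio is higher for genes seen in few cells, and pairs of other genes were not computed.

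Counted over cells, positives piled up at both ends. At least 3 of the 6 genes were seen in 22.8% of cells (21.8% to 23.7%) in the sIL-2 library, 12.4% (11.8% to 12.98%) in the IL-2/21-Trikine library and 13.7% (13.1% to 14.5%) in the sIL-2 + IL-21 library. Independent genes with the same shares would give 16.0%, 7.13% and 8.53%. None of the 6 was seen in 22.3%, 33.4% and 29.9% of cells, where independence would give 12.9%, 23.9% and 21.7%. Sets of other genes with like shares were not counted in this way. All 6 were found in 12 cells in the sIL-2 library and in 10 cells of each other library. These cells were not the deepest ones, since the median number of UMIs before thinning was 9265 for cells with all 6 genes and 13589.5 for cells with none in the sIL-2 library, 9410 and 12393 in the IL-2/21-Trikine library, and 8558.5 and 17097 in the sIL-2 + IL-21 library.

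**Figure D4:**
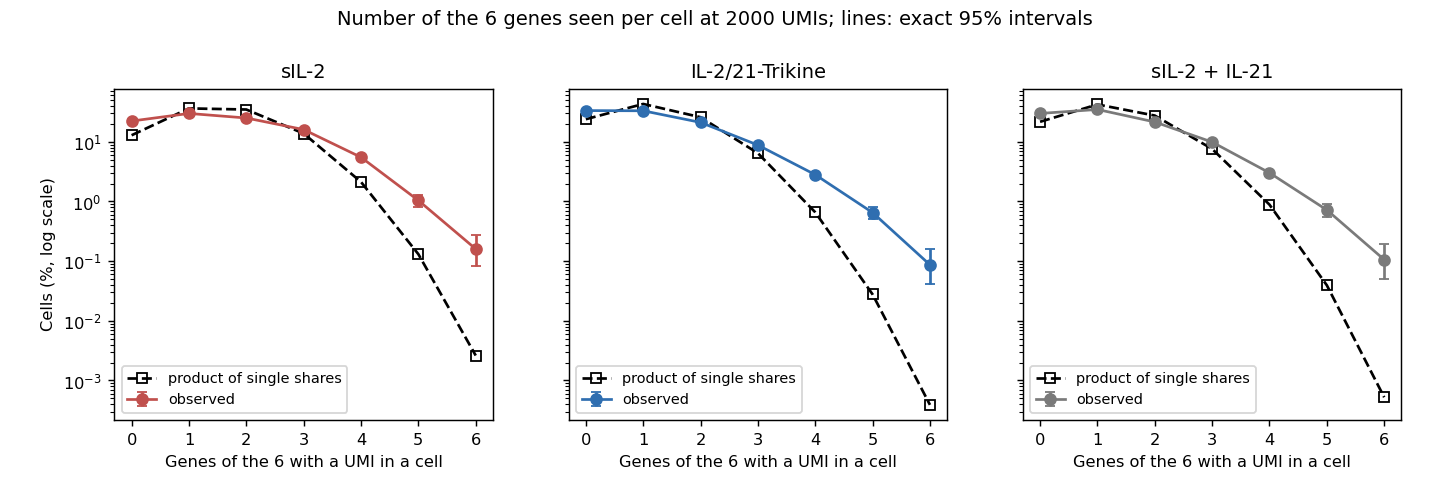
Percent of thinned cells (log scale) with 0 to 6 of the genes detected, observed (filled points, exact 95% intervals) and from the product of the single shares (open squares). Observed shares exceed the squares at 0 and from 3 genes upward, with 22.8%, 12.4% and 13.7% of cells at 3 or more.

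EGR genes were seen more often in cells with an NR4A gene than in cells without one. The same shares were not computed for other groups of genes. An EGR gene was seen in 22.5% of cells with an NR4A gene and in 9.09% of cells without one in the sIL-2 library, in 17.3% and 7.30% in the IL-2/21-Trikine library, and in 20.6% and 10.0% in the sIL-2 + IL-21 library. In the other direction 88.4%, 80.8% and 80.5% of cells with an EGR gene also had an NR4A gene. The correlation of the family sums on a log(1+x) scale over the thinned cells of a library was weak, at 0.29, 0.24 and 0.26. The other genes were more frequent in cells with more *Nr4a1* UMIs. From cells with no *Nr4a1* UMI to cells with at least 3, *Egr1* went from 7.37% to 27.1% of cells in the sIL-2 library, from 5.52% to 29.5% in the IL-2/21-Trikine library and from 8.45% to 40.4% in the sIL-2 + IL-21 library. *Nr4a3* went from 30.1% to 62.2%, from 23.1% to 63.4% and from 24.9% to 57.3%. At equal *Nr4a1* counts, *Egr1* was more frequent in the sIL-2 + IL-21 library than in the sIL-2 library, in 18.1% against 11.9% of cells with 1 *Nr4a1* UMI, in 26.9% against 17.3% of cells with 2, and in 40.4% of 302 against 27.1% of 678 cells with at least 3. The IL-2/21-Trikine library, at 11.9%, 19.2% and 29.5%, was level with the sIL-2 library or slightly above it in these cells. In cells with no *Nr4a1* UMI, which were 8689 of its 11524 cells, it was below, at 5.52% against 7.37%.

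Levels of all 6 genes were higher in cells with more cytokine genes detected. Cells were divided by how many of 9 cytokine and chemokine genes (*Ifng*, *Tnf*, *Il2*, *Il3*, *Csf2*, *Xcl1*, *Ccl1*, *Ccl3* and *Ccl4*) had a UMI at equal depth, which gives ranges of cells and not cell types, and cells 1 UMI apart fall on either side of a limit. At least 2 were seen in 55.8% of cells in the sIL-2 library, 57.2% in the IL-2/21-Trikine library and 58.6% in the sIL-2 + IL-21 library, 1 was seen in 26.2%, 29.5% and 26.5%, and none in 18.0%, 13.4% and 14.9%. *Egr2* was at 26.1 CPM in cells with at least 2 and 2.32 CPM in cells with none in the sIL-2 library, at 20.04 and 2.85 CPM in the IL-2/21-Trikine library and at 14.1 and 1.91 CPM in the sIL-2 + IL-21 library, log2 ratios of 3.49, 2.82 and 2.88. This was the widest span of the 6 genes. The log2 ratios in the same order were 2.31, 2.20 and 2.07 for *Egr3*, 1.67, 1.48 and 1.46 for *Nr4a1*, 1.47, 1.22 and 1.03 for *Egr1*, 1.09, 0.89 and 0.94 for *Nr4a3*, and 0.91, 0.81 and 0.82 for *Nr4a2*.

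**Figure D5:**
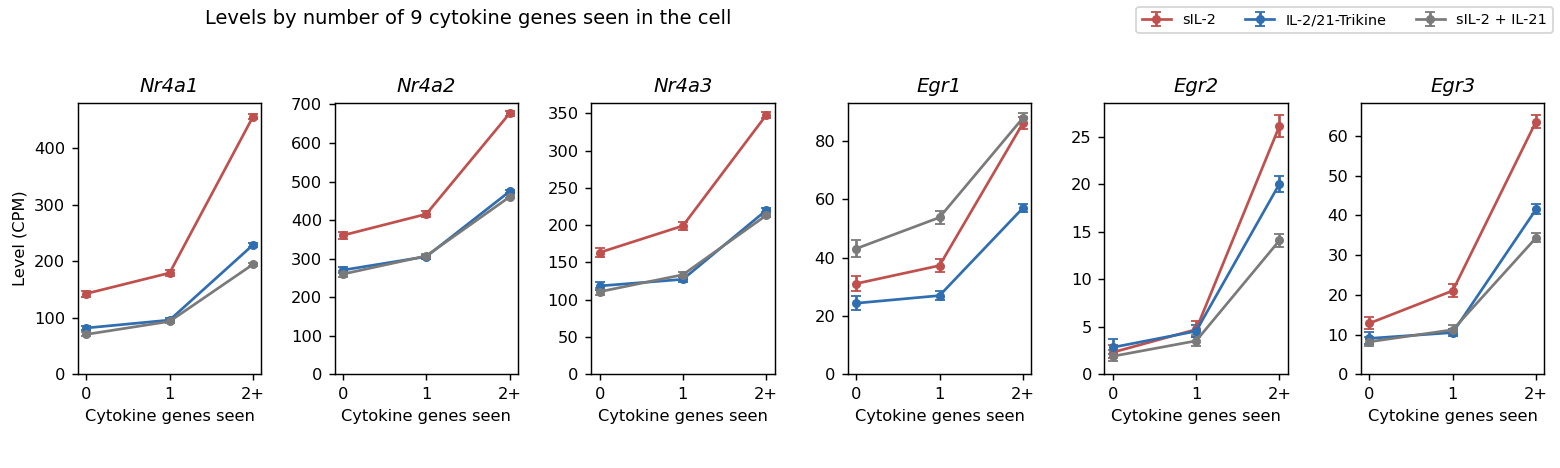
Level in CPM of the 6 genes in cells with 0, 1 and at least 2 of 9 cytokine genes detected at 2000 UMIs, in the 3 libraries, with exact 95% intervals. Every gene is highest at the right of its panel, and *Egr2* has the widest span (26.1 against 2.32 CPM in the sIL-2 library).

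The sIL-2 library stayed higher than IL-2/21-Trikine within these ranges, except for *Egr2* in cells without cytokine genes. Among cells with at least 2 cytokine genes the log2 ratio of IL-2/21-Trikine over sIL-2 was -0.99 for *Nr4a1*, -0.51 for *Nr4a2*, -0.66 for *Nr4a3*, -0.59 for *Egr1*, -0.38 for *Egr2* and -0.62 for *Egr3*. Among cells with none it was -0.80, -0.42, -0.46, -0.35, 0.29 and -0.51, where *Egr2* was at under 3 CPM in all libraries. Over the 10 ranges made from 5 lists (cytokine, proliferating, stem-like, terminal cytotoxic and interferon-stimulated genes, at least 2 or none), *Nr4a1* lay between -1.06 and -0.80.

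Proliferating cells had lower levels of all 6 genes relative to all UMIs of the cells. They were deeper, with median UMIs of 28572, 20578 and 22971 against 11944, 9690 and 10899 in cells with none, in the library order used above. A lower CPM in them thus need not mean fewer molecules per cell. In cells with at least 2 of 8 cell cycle genes, among them *Mki67* and *Top2a*, the log2 ratio over cells with none ran from -0.99 for *Egr2* to -0.60 for *Nr4a2* in the sIL-2 library, from -1.12 for *Egr3* to -0.46 for *Nr4a2* in the IL-2/21-Trikine library, and from -1.13 for *Egr3* to -0.36 for *Egr1* in the sIL-2 + IL-21 library. The share of such cells was 12.8%, 21.6% and 31.1%. Within the range with at least 2 cell cycle genes *Nr4a1* was at 223 CPM in the sIL-2 library, 126 CPM in the IL-2/21-Trikine library and 124 CPM in the sIL-2 + IL-21 library, and within the range with none at 403, 221 and 199 CPM. The sIL-2 library was thus the highest in both.

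Cells with at least 2 of 8 terminal cytotoxic genes, which included granzymes and *Havcr2*, were compared with cells with none. Their CPM levels of all 6 genes were lower in the sIL-2 library and in the IL-2/21-Trikine library. For *Egr3* in the sIL-2 library the intervals overlapped, at 39.8 CPM (38.4 to 41.3) against 42.7 CPM (39.5 to 46.2). Its shares at equal depth there were 6.57% and 6.50%. The log2 ratio of *Nr4a1* was -0.65, -0.72 and -0.82. *Egr1* was the exception in the sIL-2 + IL-21 library, at 0.07, and 72.1% of the cells of that library had at least 2 of these genes. Cells with at least 2 interferon-stimulated genes had higher levels in CPM of the 6 genes than cells with none in each library. The log2 ratio was highest for *Egr3*, at 1.17, 1.33 and 1.40. Shares at equal depth did not all follow. *Nr4a2* was in 55.8% of such cells against 57.6% in the sIL-2 library and in 48.7% against 49.5% in the sIL-2 + IL-21 library. *Egr2* was in 3.30% against 4.07% in the sIL-2 library and in 2.64% against 2.95% in the IL-2/21-Trikine library. Shares of the other genes and libraries were higher in such cells. Differences with stem-like genes such as *Tcf7* and *Il7r* were small for the NR4A genes (-0.19 to 0.25), and *Egr2* was lower in cells with at least 2, at -0.76, -0.80 and -0.40. Depth differed between such ranges. The median UMIs before thinning were 28572 in proliferating cells and 11944 in cells without these genes in the sIL-2 library, and the part of depth in these differences was not tested.

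The other genes of the pathway were read from lists by role. For comparison, 5.81% of all genes tested were lower and 2.88% higher by more than 0.5 in IL-2/21-Trikine than in sIL-2. With sIL-2 against sIL-2 + IL-21, 10.1% of them were higher and 5.79% lower. With IL-2/21-Trikine against sIL-2 + IL-21, 3.51% were higher and 3.58% lower. Of 19 tested immediate early and MAPK response genes, 7 were lower in the IL-2/21-Trikine library than in the sIL-2 library by more than 0.5 and 1 was higher, with a median log2 ratio of -0.37 beside -0.08 for all genes tested. *Dusp5* and *Dusp2*, nuclear phosphatases that act on ERK and other MAP kinases, were at log2 ratios of -0.85 and -0.74, and *Spry2*, an inhibitor of receptor tyrosine kinase signaling, at 0.72. *Fos*, *Jun*, *Ier2* and *Dusp1*, which are among the fastest genes of this response, were at -0.04, -0.11, -0.18 and -0.09. Other early genes of the list were lower, with *Fosb* at -0.37, *Junb* at -0.53, *Btg2* at -0.59 and *Ier3* at -0.69. With sIL-2 against sIL-2 + IL-21 the counts were 7 higher and 1 lower. *Fos*, *Jun*, *Ier2* and *Dusp1* were at -0.26, 0.01, -0.13 and -0.15 in this comparison, beside -0.15 for *Egr1*. In contrast, *Fosb*, *Junb*, *Btg2* and *Ier3* were at 0.14, 0.47, 0.53 and 0.35. The list median was then 0.46, beside 0.08 for all genes. IL-2/21-Trikine against sIL-2 + IL-21 gave 3 higher, *Spry1*, *Dusp10* and *Myc*, and none lower, with a median of -0.06. *Fos* was at 99.98 CPM in the sIL-2 library, 97.2 CPM in the IL-2/21-Trikine library and 119.6 CPM in the sIL-2 + IL-21 library, so its highest library was that of *Egr1*.

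Calcineurin, NFAT and NF-κB response genes were counted next. Of 11 tested, 4 were lower and none higher in the IL-2/21-Trikine library than in the sIL-2 library, and 6 were higher and none lower in the sIL-2 library than in the sIL-2 + IL-21 library. Among all genes tested, 5.81% were lower and 2.88% higher in the first comparison, and 10.1% were higher and 5.79% lower in the second. *Nfatc1*, an NFAT factor that is itself induced by NFAT, was at 111 CPM in the sIL-2 library, 73.4 CPM in the IL-2/21-Trikine library and 57.9 CPM in the sIL-2 + IL-21 library. The list medians were -0.40 and 0.54 in these comparisons. *Nfkbid*, a nuclear IκB protein, was at log2 ratios of -0.67 and 0.71, and *Rgs1* and *Nfkb1* were the other genes past the limit in the first. *Batf* was at -0.08 and 0.08, and *Nfkbia*, the classical NF-κB inhibitor, at -0.17 and 0.06. In the comparison of IL-2/21-Trikine against sIL-2 + IL-21 no gene of this list was past 0.5, and its median was 0.13.

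EGR partners and genes linked to EGR2 gave 4 lower (*Nab2*, *Dgka*, *Ndrg1* and *Lag3*) and none higher of 10 tested in the IL-2/21-Trikine library against sIL-2, with a median of -0.40. Of all genes tested in this comparison, 5.81% were lower and 2.88% higher. *Nab2*, a corepressor that binds EGR proteins, was at -0.61, *Dgka*, a diacylglycerol kinase, at -0.56 and *Cblb*, a ubiquitin ligase that limits T cell activation, at -0.35. With sIL-2 against sIL-2 + IL-21 the counts were 4 higher (*Dgka*, *Crtam*, *Lag3* and *Cblb*) and 1 lower, with a median of 0.37. Of all genes tested there, 10.1% were higher and 5.79% lower. *Dgka* was at 0.89, *Cblb* at 0.72 and *Nrgn*, a calmodulin-binding protein, at -1.10. Exhaustion-linked genes were lower for 5 of 8 (*Havcr2*, *Cd244a*, *Pdcd1*, *Tigit* and *Entpd1*; median -0.63) in the IL-2/21-Trikine library than in the sIL-2 library, with *Havcr2* (TIM-3) at -1.33 and *Pdcd1* (PD-1) at -0.75, but *Tox*, a factor of the exhaustion program, was at 0.49. Against sIL-2 + IL-21 the sIL-2 library had 3 of these 8 genes higher, beside 10.1% of all genes tested, and none lower, with a median of 0.19. The higher genes were *Tox* at 1.34, *Tigit* at 0.83 and *Cd160* at 0.70, while *Havcr2* was at 0.03 and *Pdcd1* at 0.01. *Tigit*, at -0.63 in the first comparison, was thus past the limit with sIL-2 higher in both, as *Nr4a1* was. With IL-2/21-Trikine against sIL-2 + IL-21, 4 of these 8 genes were lower and 1 was higher, with a median of -0.22. Of all genes tested there, 3.58% were lower and 3.51% higher. *Havcr2* was at -1.31, *Cd244a* at -1.14, *Pdcd1* at -0.74 and *Entpd1* at -0.61, while *Tox* was at 1.83. The NR4A genes lay between 0.03 and 0.19 in that comparison.

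Surface genes known to follow antigen contact passed the limit about as often as all genes tested. Of 10 tested, none was lower and 1 was higher in the IL-2/21-Trikine library than in the sIL-2 library, with a median of 0.02, beside 8.69% of all genes past the limit either way. With sIL-2 against sIL-2 + IL-21, 1 was higher and 1 lower, with a median of 0.25, beside 15.9% of all genes. In the first comparison the 1 higher gene, *Cd200*, was at low levels of 7.86 and 4.51 CPM. *Cd69*, an early activation marker, was at 419 CPM in the sIL-2 library, 424 CPM in the IL-2/21-Trikine library and 402 CPM in the sIL-2 + IL-21 library. *Cd5*, whose level is known to scale with the strength of receptor signaling, was at a log2 ratio of 0.20. *Tnfsf8*, the CD30 ligand, was at -0.49 between IL-2/21-Trikine and sIL-2 and at 1.57 with sIL-2 against sIL-2 + IL-21. Effector cytokines were lower for 4 of 9 (*Il3*, *Il2*, *Csf2* and *Ifng*; median -0.49) and higher for none in the IL-2/21-Trikine library than in the sIL-2 library, with *Il3* at -1.42, *Il2* at -0.84 and *Ifng* at -0.50, and *Xcl1* at 0.00. With sIL-2 against sIL-2 + IL-21, 4 were higher (*Il2*, *Ccl1*, *Xcl1* and *Ccl4*) and none lower, with a median of 0.42. Among all genes tested, 5.81% were lower in the first of these comparisons and 10.1% were higher in the second.

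Dissociation of tumors is known to induce several of the same genes. *Fos*, *Fosb*, *Jun*, *Junb*, *Jund*, *Ier2*, *Ier3*, *Dusp1* and *Btg2* are in this list and in the immediate early list. The counts of these lists are therefore not independent. Of 14 genes of that response, 5 were lower (*Zfp36*, *Ier3*, *Btg2*, *Junb* and *Hspa1a*; median -0.36) and none higher in the IL-2/21-Trikine library than in the sIL-2 library, with *Zfp36*, which encodes an RNA-destabilizing protein, at -0.78, and the list summed to 5679 CPM in the sIL-2 library, 4330 CPM in the IL-2/21-Trikine library and 4788 CPM in the sIL-2 + IL-21 library. *Hspa1a* and *Hspa1b*, heat shock genes, were at -0.51 and -0.37. Nearer to no change were *Fos*, *Jun*, *Atf3*, *Dusp1*, *Klf6* and *Ier2*, at -0.04, -0.11, -0.10, -0.09, -0.09 and -0.18. Most of the sum came from *Jund*, *Junb* and *Btg2*, at 1768, 1311 and 1151 CPM in the sIL-2 library. In the sIL-2 library 3 genes of the list (*Zfp36*, *Btg2* and *Hspa1b*) were higher than in the sIL-2 + IL-21 library and none was lower, with a median of 0.13. Of all genes tested, 10.1% were higher in this comparison, and 5.81% were lower in IL-2/21-Trikine than in sIL-2. The part of dissociation in the values of the NR4A and EGR genes was not tested.

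Genes with the most similar pattern across cells were ranked by the lowest Pearson correlation in any of the 3 libraries, on a log(1+x) scale over thinned cells, among 2967 genes for the NR4A sum and 2969 for the EGR sum with at least 50 CPM. For the NR4A sum these were *Ccl4*, *Junb*, *Gadd45b*, *Btg2*, *Nfkb1*, *Ccl3*, *Nfkbia*, *Rel*, *Dusp2* and *Xcl1*, with 0.36, 0.35 and 0.34 for *Ccl4* in the library order used above. *Junb*, an AP-1 subunit, was at 0.44, 0.37 and 0.34. The lowest, ranked by the highest correlation in any library, were *Tmsb4x*, *Tmsb10* and *Gzmc*, with -0.24, -0.20 and -0.28 for *Gzmc*, which encodes a granzyme. For the EGR sum the leading genes were *Ccl4*, *Nr4a1*, *Fos*, *Cd69*, *Ccl3*, *Srgn*, *Nr4a3*, *Zfp36l1*, *Nfkbid* and *Kdm6b*, with 0.32, 0.31 and 0.30 for *Ccl4* and 0.24, 0.22 and 0.30 for *Fos*. The lowest, again by the highest correlation in any library, were the ribosomal protein genes *Rps15a*, *Rps26* and *Rpl41*, at -0.10 or below. *Fos* ranked 3 for the EGR sum and 41 for the NR4A sum. *Cdkn1a*, a cell cycle inhibitor, ranked 59 for the NR4A sum with 0.21, 0.14 and 0.14, and *Tnfsf8* ranked 149. The points of these correlations are cells of 1 library that share depth after thinning, and values of this size in sparse counts describe the cells and are no test.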

How the data were processed

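Live Thy1.1+CD8+ cells from tumors were sequenced with 10x 3′ v3.1 chemistry in 3 libraries, 1 per treatment. For each library the authors deposited a matrix of unnormalized UMI counts covering 33696 genes, made with Cell Ranger 9.0.0 per the file headers, with intronic reads included per the methods. The labels name mm10 and the methods a GRCm39 reference. Cells with 500 to 120000 UMIs and at most 20% of UMIs from 13 mitochondrial genes were kept, the limits of the methods. No doublet caller was run, and leaving out the deepest 5% of cells was an alternative. The test over cells used in the study was not used, since cells are not replicates.

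Levels were counts summed over the kept cells, as CPM, with exact Poisson intervals. Shares had exact binomial intervals, in cells thinned to 2000 UMIs by seeded draws without replacement. Log2 ratios had exact conditional binomial intervals, and genes with a mean of at least 5 CPM over the libraries were compared. Named genes were the 6 genes, the list members described by role, and the 10 most and 3 least similar genes for each family. *Cdkn1a*, and the ranks of *Fos* and *Tnfsf8*, were added after their values were seen. The genes and all lists were chosen with earlier results of these data known. Steps were tested on simulated data. Python 3.11.15 was used, and matplotlib 3.10.9, pandas 2.3.3, scipy 1.17.1 and numpy 2.4.6.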

Additional observations from a re-analysis of the deposited data

How the results depend on the processing

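No paired analysis was possible because each treatment is 1 library and the labels carry no replicate numbers. At a limit of 1 on the log2 scale the number of the 6 genes past it was 0 for IL-2/21-Trikine against sIL-2, 0 for IL-2/21-Trikine against sIL-2 + IL-21 and 1 for sIL-2 against sIL-2 + IL-21. In the last comparison 3 genes passed 0.5 with each cell weighted equally, and 3 in cells of 5000 to 20000 UMIs, in place of 5. The number of all genes past 0.5 rose with low genes, from 767 to 1226 (at least 1 CPM) and 5740 (no filter) for IL-2/21-Trikine against sIL-2, from 626 to 1162 and 6144 for IL-2/21-Trikine against sIL-2 + IL-21, and from 1400 to 6892 without a filter for sIL-2 against sIL-2 + IL-21. The median ratio over the 15 pairs was 2.14 in the sIL-2 library, 3.55 in the IL-2/21-Trikine library and 3.69 in the sIL-2 + IL-21 library when a gene needed at least 2 UMIs, and with IL-2/21-Trikine it was 2.03 after thinning to 1000 UMIs, 1.41 at 5000 UMIs and 1.73 without limits on cells. The cause of these shifts was not tested.

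The library with the highest share of positive cells was the same in 12 of 12 settings for each gene. These settings reuse the cells of the same 3 libraries. For *Egr1* the lead of sIL-2 + IL-21 over sIL-2 was narrow in some of them. It was 11.9% against 11.7% in cells of 5000 to 20000 UMIs and 6.74% against 6.50% after thinning to 1000 UMIs. Among log2 ratios under the alternatives, 105 moved by less than their counting interval and 57 by more, and among shares 119 and 79. The share alternatives include thinning to 1000 or 5000 UMIs and a need for at least 2 UMIs, which change detection by design. For *Nr4a1* in the sIL-2 library these gave 25.8%, 56.8% and 17.8%, beside 38.6%. Leaving out barcodes found in another library was chosen after seeing the data. No replicate was available, so the spread between mice is unknown and no interval here contains it.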
